A study of Mus musculus with 8 samples.

Results

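The 35 genes described here encode enzymes and carriers that bring pyruvate, ketone bodies and branched-chain amino acids into the mitochondrial tricarboxylic acid (TCA) cycle, turn the cycle, and pass reducing equivalents across the inner membrane through the malate-aspartate shuttle. They were chosen by name and found by symbol: 35 of 35 were present in the count tables, out of 21833 symbols in all. They were followed in gastrocnemius, the large superficial muscle of the calf, from male C57BL/6J mice aged 12 weeks in 2 groups. The RA+Dipy group (n = 4 mice) received pooled serum from arthritic K/BxN mice, 100 µL into the peritoneum on day 0 and day 2, plus 25 mg/kg of dipyridamole daily, starting on day 0. The RA group (n = 4 mice) received the same serum on the same days without the drug. Muscle was taken on day 16 and read by bulk poly(A) RNA sequencing. The arthritis was therefore passive, passed on by serum, although the genotype field reads K/BxN for all 8 recipients, and the label on treatment protocol names dipyridamole for both groups; samples were grouped by title. Muscle from mice without arthritis was not analysed here, and whether RA mice received a vehicle is not stated in the sources used here.

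In the TCA cycle, acetyl groups from carbohydrate, fat, ketone bodies and amino acids are oxidised in a ring of reactions whose electrons feed the respiratory chain. Pyruvate enters mitochondria through a carrier of paired subunits and is turned into acetyl-CoA by the pyruvate dehydrogenase complex, which kinases switch off and phosphatases switch on. In muscle the cycle supports sustained contraction, and oxidative fibres hold more of its enzymes than fast glycolytic fibres. Dipyridamole is an antiplatelet drug that blocks nucleoside transporters, so that adenosine builds up extracellularly, and that also inhibits phosphodiesterases.

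The libraries held 16.4 to 25.4 M (mega) counts in RA+Dipy and 16.7 to 50.6 M in RA. Levels are given as CPM, counts scaled to library depth with factors from the trimmed mean of M-values (TMM). The labelled tissue showed its markers: 8 fast-fibre genes summed to 130794 to 143632 CPM in RA+Dipy and 129947 to 188453 CPM in RA, and 6 slow-fibre genes to 258 to 1443 CPM and 434 to 1525 CPM. A library of either group differed from the other 6. In RA+Dipy replicate 1, 16.3% of the 12755 genes tested lay more than 2-fold from their 8-library median, and in RA replicate 4, 35.1%, against 0.141% to 1.83% in the others. Fold changes and counts are therefore given with all 8 libraries and again without these 2. The fast-fibre sums hid opposite moves in these 2 libraries. Atp2a1 had 2117 and 8217 CPM there against 17760 to 21923 CPM elsewhere, and Myh1 575 and 463 against 1910 to 3689 CPM. Pvalb was higher there, at 46679 and 64431 CPM against 11540 to 21475 CPM. The same 2 libraries had the highest sums of erythroid markers (4 genes), at 611 and 875 CPM against 111 to 200 CPM elsewhere, but the 4 genes did not move together. Hbb-bs made up 478 of the 611 CPM and Hba-a1 714 of the 875 CPM, while Alas2 was lowest in these 2 libraries, at 0.594 and 0.169 CPM against 2.38 to 4.21 CPM. Endothelial markers (4 genes) had their lowest sums there, at 105 and 109 CPM against 177 to 239 CPM, but not all 4 fell alike. Cdh5 had 20.5 and 15.7 CPM against 53.8 to 76.4 CPM, and Kdr 23.4 and 23.7 against 34.8 to 57.3 CPM. Tek in RA+Dipy replicate 1 (21.4 CPM) lay within the range elsewhere (14.3 to 22.2), and Pecam1 in RA replicate 4 (59.8 CPM) was close to it (63.3 to 84.7). Schwann cell markers (5 genes) summed to 114 to 203 CPM in RA+Dipy and 171 to 465 CPM in RA, highest in RA replicate 4, and macrophage markers (6 genes) to 125 to 276 CPM and 90.7 to 217 CPM. No marker was at 0 in any library. The part of these other cell types in the results was not tested. In whole muscle, fewer cells of a type and less RNA per cell cannot be told apart.

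Transcripts of malate dehydrogenase were the most abundant of the 35 per length. Over the 6 libraries that resembled each other, the cytosolic enzyme Mdh1 averaged 267 CPM per kb of annotated exon (range 217 to 329) and its mitochondrial counterpart Mdh2 264 (217 to 311). This measure divides by the summed length of all annotated exons, which can exceed the main transcript, and per kb of the longest coding transcript Mdh2 averaged 645 and Mdh1 323 CPM. They were the top 2 genes by either length, but their order and distance depended on it. Citrate synthase, Cs, stood at 150 CPM per kb of exon and 296 per kb of transcript. The 3 subunits of NAD-dependent isocitrate dehydrogenase stood close together by either length, Idh3b at 120, Idh3a at 117 and Idh3g at 113 CPM per kb of exon, and at 253, 230 and 230 per kb of transcript. The alpha and beta subunits of pyruvate dehydrogenase did not: Pdha1 had 86.9 and Pdhb 84.8 CPM per kb of exon, but 114 and 216 per kb of transcript.

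The order of some members thus could not be fixed, above all that of Mpc2, with 33 CPM per kb over 7344 exon bases and 236 over a transcript of 1025. At the low end the lengths gave a similar order, apart from Mpc1, with 12.5 CPM per kb of exon and 27.1 per kb of transcript. The cytosolic aconitase Aco1, which doubles as an iron-sensing RNA-binding protein, was lowest at 4.23 CPM per kb of exon (3.28 to 6.27), next to the cytosolic NADP-dependent isocitrate dehydrogenase Idh1 at 8.21 (6.19 to 11.1) and Dbt at 8.38 (7.05 to 9.77). Suclg2 (10.2), Bdh1 (11), Bckdhb (12.7) and Bckdha (14.8) followed. Bckdha shares 1171 of its 1899 exon bases, and Bdh1 533 of 3888, with a gene on the opposite strand. How this affects their levels was not tested.

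**Figure D1:**
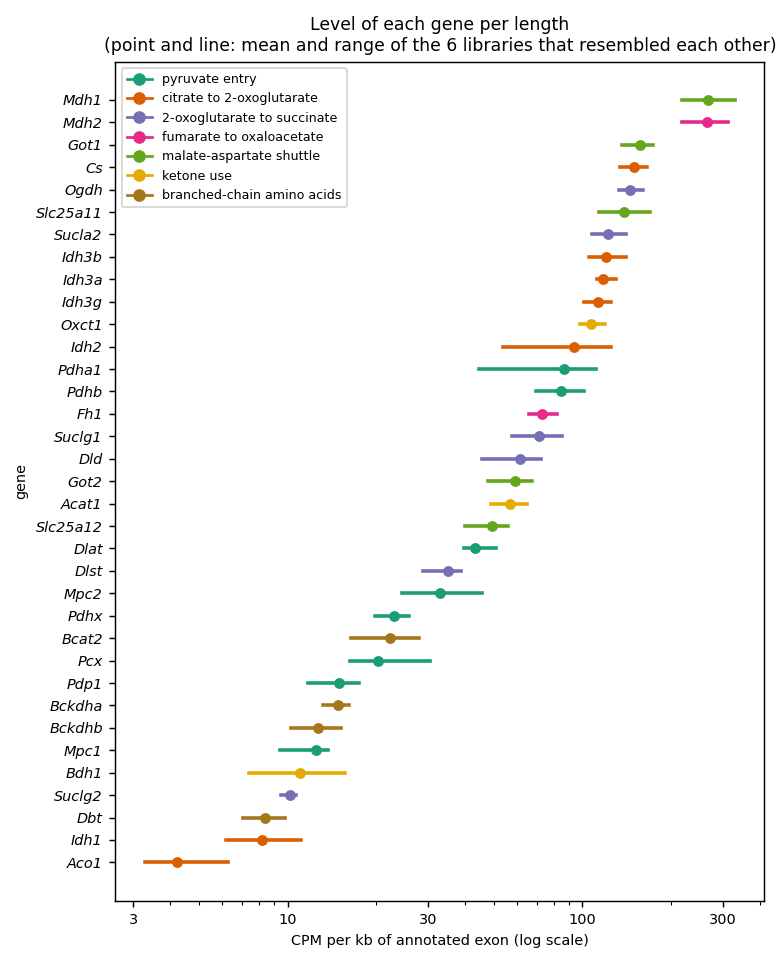
Level of each of the 35 genes in CPM per kb of annotated exon (log axis), coloured by step. Points are means and lines ranges over RA+Dipy replicates 2 to 4 and RA replicates 1 to 3; Mdh1 (267) and Mdh2 (264) stand highest and Aco1 (4.23) lowest. Lengths are summed exons, so levels of genes with long alternative exons, such as Mpc2 (33), are understated.

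None of the 35 genes differed between RA+Dipy and RA muscle past the threshold of the quasi-likelihood test of edgeR. The Benjamini-Hochberg adjusted p from edgeR, over all 12755 genes tested, ran from 0.882 to 0.995 for the 35. Across all genes 0 were called (0%), 488 had an unadjusted p under 0.05 (3.83%; 1.68% higher and 2.15% lower in RA+Dipy), and none of the 35 were among those 488. DESeq2 called 0 genes as well (740 at an unadjusted p under 0.05, 5.8%; 2.07% higher and 3.73% lower), with 0 of the 35 at that level and 29 of the 35 above 0, against 51% of all genes. Limma-voom with library weights called 133 genes (1.04%; 0.87% higher and 0.172% lower) and 0 of the 35. With these weights 6 of the 35 had an unadjusted p under 0.05 (17.1%), Pdha1, Pdp1, Aco1 and Idh1 higher and Idh2 and Bcat2 lower in RA+Dipy, against 14% higher and 14.5% lower among all genes (28.5% together), and 20 of the 35 lay above 0, against 51.4% of all genes. With all 8 libraries, 31 of the 35 had a higher fitted value in RA+Dipy and 4 a lower one, where 52.2% of all genes tested were higher. The median log2 fold change of RA+Dipy over RA was 0.19, against 0.023 over all genes tested. The standard error (SE) of a single gene's log2 fold change ran from 0.23 (Bcat2) to 0.76 (Bckdha), with a median of 0.34. The groups overlapped for each of the 35, while they did not for 2.72% of all genes.

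That lean towards RA+Dipy rested largely on RA replicate 4. This library held the lowest value of the 8 for 25 of the 35 genes (71.4%) and the highest for 4, while it held the lowest value for 33.7% and the highest for 32.4% of all genes tested. The 35 genes together summed to 6045 CPM in it. The RA+Dipy libraries summed to 11306, 10301, 10751 and 9315 CPM in replicates 1 to 4, and RA replicates 1 to 3 to 9873, 9194 and 11080 CPM. The median of the 35 lay at −1.09 log2 units from the 8-library medians in RA replicate 4, and between −0.0451 and 0.141 in the other 7. RA+Dipy replicate 1 had a median near 0 (−0.0123) but a wide spread, from −3.60 for Bckdha to 1.88 for Mpc2, and was the highest library for 12 of the 35 and the lowest for 4. Without these 2 libraries 22 of the 35 were higher and 13 lower (51.3% of all genes were higher), and the median log2 fold change was 0.0417, against 0.0091 over all genes. It was 0.0609 without RA replicate 4 alone, with 21 higher, and 0.21 without RA+Dipy replicate 1 alone, with 27 higher.

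**Figure D2:**
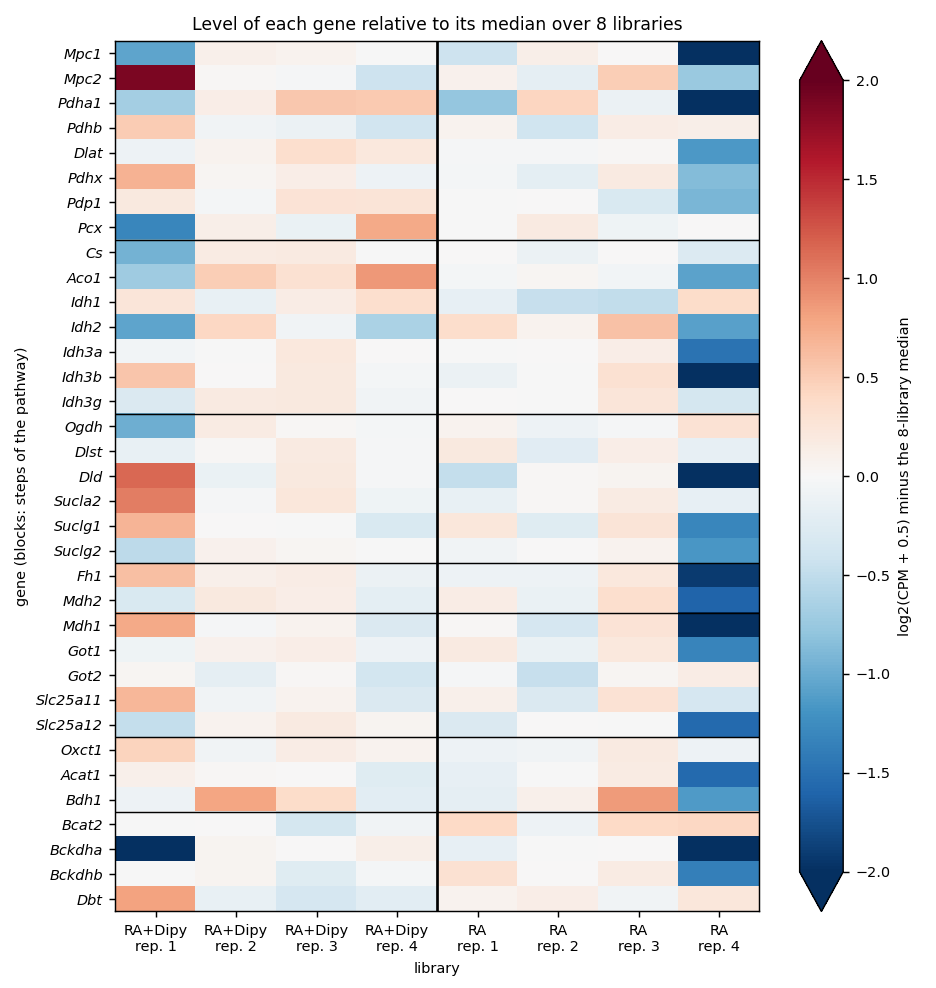
Level of each of the 35 genes (rows, in blocks by step) in each library (columns), as log2(CPM + 0.5) minus the gene's median over 8 libraries. RA replicate 4 is low for most rows, RA+Dipy replicate 1 is high for some and low for others, and the other 6 columns are mostly pale.

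**Figure D3:**
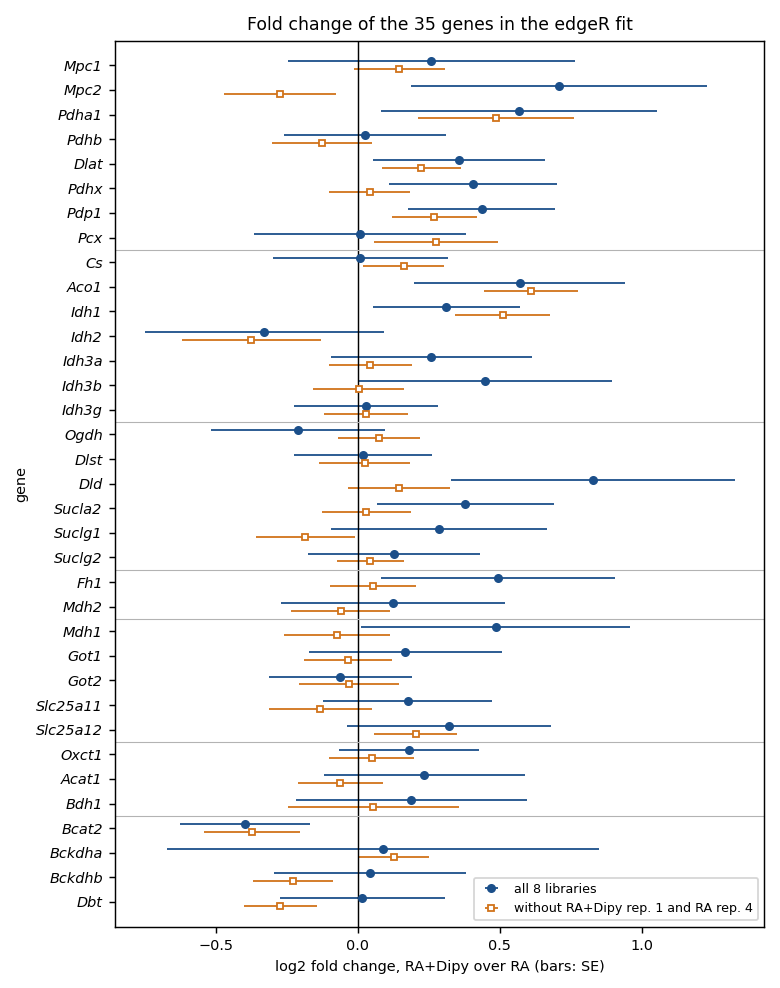
Log2 fold change of RA+Dipy over RA with its SE for each of the 35 genes, with all 8 libraries (filled circles) and without RA+Dipy replicate 1 and RA replicate 4 (open squares). With 8 libraries 31 points lie right of 0 and with 6 libraries 22; Bcat2 (−0.40 and −0.37) is nearly the same in both.

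In the 6 libraries that resembled each other, which were set apart by their small deviations over all genes, the ratio of the highest to the lowest library had a median of 1.41 over the 35 and ran from 1.12 (the GTP-forming succinyl-CoA ligase subunit Suclg2) to 2.48 (Pdha1). It exceeded 2 for 3 genes, Pdha1, the mitochondrial NADP-dependent isocitrate dehydrogenase Idh2 (2.34) and the ketone body enzyme Bdh1 (2.11). With all 8 libraries the median ratio was 3.21, and 28 genes exceeded 2. Between RA+Dipy and RA, the 6-library values did not overlap for 6 of the 35 (17.1%), a share near the 14.1% of all genes tested. Dlat, Aco1, Idh1, Slc25a12 and Bckdha were higher in RA+Dipy (7.9% of all genes were) and Dbt lower (6.23%). Without the 2 libraries edgeR again called 0 genes (0%; smallest adjusted p 0.418). At an unadjusted p under 0.05 it had 2 of the 35, Aco1 and Idh1 (5.71%), both higher in RA+Dipy, and 11.4% of all genes tested (5.96% higher, 5.45% lower).

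All 8 genes of pyruvate entry had a higher fitted value in RA+Dipy, the median log2 change being 0.38, with 0 past the threshold. Without the 2 libraries it was 6 of 8 and 0.19. The phosphatase Pdp1, which switches the pyruvate dehydrogenase complex on, had 75.2, 63.3, 78.7 and 78 CPM in RA+Dipy replicates 1 to 4 and 64.8, 65.9, 52.9 and 34.3 CPM in RA replicates 1 to 4. Of the RA+Dipy values 3 lay above all 4 RA values, and RA+Dipy replicate 2 lay below the upper RA values. Its log2 fold change was 0.44 (SE 0.26), and 0.27 (SE 0.15) without the 2 libraries. Pdhx, the protein that docks dihydrolipoamide dehydrogenase onto the complex, had 146, 91.5, 98.4 and 83.1 CPM in RA+Dipy and 87.4, 77.9, 102 and 48.5 CPM in RA. Here the distance between the groups came from the top RA+Dipy and the bottom RA library: log2 0.41 (SE 0.30) with them and 0.0417 (SE 0.14) without.

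The pyruvate carrier subunits behaved unlike each other in RA+Dipy replicate 1. Mpc2 had 881 CPM there and 243, 234 and 179 CPM in RA+Dipy replicates 2 to 4, against 252, 210, 336 and 142 CPM in RA. Mpc1 had 12.4 CPM in that library and 28.2, 27.5 and 26.2 CPM in the other RA+Dipy libraries, against 19.5, 28.6, 26.4 and 4.06 CPM in RA. The same library thus held the highest Mpc2 value and the second lowest Mpc1 value, and in RA replicate 4 both were at their lowest. The log2 fold change of Mpc2 was 0.71 (SE 0.52) with 8 libraries and −0.27 (SE 0.20) without the 2. That of Mpc1 was 0.26 (SE 0.51) and 0.15.

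Within the complex itself, Pdha1, whose gene lies on chromosome X, ranged more widely than its partner Pdhb. It had 177, 310, 413 and 410 CPM in RA+Dipy and 167, 385, 261 and 70.9 CPM in RA. The groups overlapped, with RA replicate 1 near RA+Dipy replicate 1. The log2 fold change was 0.57 (SE 0.49), and 0.49 (SE 0.28) without the 2 libraries, but 0.29 without RA replicate 4 alone and 0.98 without RA replicate 2. Pdhb stood at a log2 fold change of 0.0248 (SE 0.28), with 359 ± 99.3 CPM in RA+Dipy and 353 ± 57.6 CPM in RA (SD, n = 4 each). Dlat, the acetyl-transferring core, had 183, 206, 248 and 227 CPM in RA+Dipy and 194, 194, 199 and 88.5 CPM in RA (log2 0.36, SE 0.30; 0.22, SE 0.14, without the 2 libraries). Pcx, pyruvate carboxylase, which refills oxaloacetate and is abundant in fat and liver, had 34.4, 93.1, 77.5 and 144 CPM in RA+Dipy and 85.1, 96.9, 80.1 and 85.8 CPM in RA. Its high value in RA+Dipy replicate 4 stood beside the highest adipocyte marker sum (6 genes), 1292 CPM, against 392 to 794 CPM in the other RA+Dipy libraries and 290 to 713 CPM in RA. The part of fat cells in the Pcx value was not tested. Its log2 fold change was 0.0068 with all libraries, −0.35 without RA+Dipy replicate 4 and 0.27 without the 2 libraries that stood apart.

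From citrate to 2-oxoglutarate 6 of 7 genes had a higher fitted value in RA+Dipy. The median log2 change was 0.26, and 0.0441 without the 2 libraries (again 6 of 7). The cytosolic enzymes Aco1 and Idh1 had the smallest p of these 7. Aco1, on chromosome 4 (chr4:40143081-40198338, GRCm38), had 9.11, 21.7, 18.9 and 28.2 CPM in RA+Dipy and 14.9, 15.7, 14.8 and 7.01 CPM in RA. In each group the library that stood apart was the lowest, and RA+Dipy replicates 2 to 4 lay above all RA libraries. The log2 fold change was 0.57 (SE 0.37) with 8 libraries and 0.61 (SE 0.17; edgeR adjusted p 0.418) with 6, but 0.34 without RA+Dipy replicate 4 and 0.38 without RA replicate 4 alone. Idh1, which makes NADPH in the cytosol (chr1:65158616-65186500), had 29.1, 22, 27.1 and 30.8 CPM in RA+Dipy and 21.6, 17.7, 17.1 and 31.5 CPM in RA. RA replicate 4 was the highest of the 8, and the other RA libraries lay below the RA+Dipy range. The log2 fold change was 0.31 (SE 0.26) and 0.51 (SE 0.17; edgeR adjusted p 0.418) without the 2 libraries.

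Idh2 leaned the other way. It had 104, 288, 205 and 139 CPM in RA+Dipy and 275, 226, 324 and 101 CPM in RA, with a log2 fold change of −0.33 (SE 0.42), and −0.38 (SE 0.25) without the 2 libraries. Leaving out single libraries gave −0.63 (RA+Dipy replicate 2), −0.14 (RA+Dipy replicate 1), −0.22 (RA+Dipy replicate 4), −0.57 (RA replicate 4) and −0.13 (RA replicate 3). The groups overlapped over most of their range. Idh2 was highest in RA replicate 3, where the slow-fibre marker sum was 1427 CPM, and among RA+Dipy replicates 2 to 4 it was lowest in replicate 4, where that sum was 258 CPM. In RA+Dipy replicate 1 and RA replicate 4 the sums were 1443 and 1525 CPM, and Idh2 had 104 and 101 CPM. The slow-fibre genes did not move together in these libraries. Tnnc1 had 290 and 396 CPM there against 24 to 197 CPM elsewhere. The slow myosin Myh7 had 80.2 and 82.2 CPM, within the 39.7 to 129 CPM elsewhere. The part of fibre type was not tested. Cs, the usual marker enzyme of mitochondrial content, had 437, 941, 951 and 840 CPM in RA+Dipy and 841, 772, 844 and 693 CPM in RA (log2 0.0088, SE 0.31; 0.16, SE 0.14, without the 2 libraries). The NAD-dependent subunits Idh3a, Idh3b and Idh3g had log2 fold changes of 0.26, 0.45 and 0.0289 with 8 libraries. Without the 2 libraries they were 0.0441, 0.0024 and 0.0288, and RA replicate 4 was the lowest library for each of these 3 genes.

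From 2-oxoglutarate to succinate 5 of 6 genes had a higher fitted value in RA+Dipy. Their median log2 change was 0.21, and 0.0367 without the 2 libraries. Dld, dihydrolipoamide dehydrogenase, is shared by the pyruvate, 2-oxoglutarate and branched-chain complexes and had the largest fold change of the 35. It had 519, 212, 267 and 230 CPM in RA+Dipy and 168, 236, 242 and 45.8 CPM in RA. The 2 libraries that stood apart marked the top and the bottom, and the other 6 overlapped between groups. The log2 fold change was 0.83 (SE 0.50) with 8 libraries, 0.45 without RA+Dipy replicate 1, 0.54 without RA replicate 4 and 0.15 (SE 0.18) without both. Sucla2, the ATP-forming subunit of succinyl-CoA ligase, had 969, 467, 557 and 451 CPM in RA+Dipy and 431, 487, 536 and 425 CPM in RA (log2 0.38, SE 0.31; 0.0297, SE 0.16, without the 2 libraries). Its high value was likewise that of RA+Dipy replicate 1. Suclg2 had 32.1, 49.3, 47.6 and 45.9 CPM in RA+Dipy and 44.1, 46.9, 48.5 and 20.5 CPM in RA, and Suclg1, the shared alpha subunit, stood at 0.29 on the log2 scale (SE 0.38), and at −0.18 without the 2 libraries. Ogdh, the decarboxylating subunit of 2-oxoglutarate dehydrogenase, was lower in the fit (log2 −0.21, SE 0.31), at 396, 874, 794 and 760 CPM in RA+Dipy and 824, 727, 768 and 950 CPM in RA. Without the 2 libraries its value was 0.074. Dlst, the succinyl-transferring core of the same complex, stood at 0.0168 (SE 0.24) with 8 libraries and 0.0232 with 6.

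Promoters of the 35 were compared with motifs of regulators known to act on mitochondrial genes. Windows of 300 bases around RefSeq starts (250 before, 50 after; GRCm38.p6) were at hand for 31 of the 35 genes, 42 windows in all. The letters of the ERR response element, TNAAGGTCA on either strand, were in 0 of the 42 windows and in 1.28% of 32851 windows over all genes. The NRF1 motif, read as GCGCA, any base, then GCGC on either strand, was in 2 of the 42 (4.76%) and in 4.6% of all windows, so its share in the 35 was close to that over all genes. The 2 windows belong to Dld (chr12:31351422-31351721, minus strand) and Sucla2 (chr14:73552536-73552835, plus strand), both described above. They are shown 5′ to 3′ with the motif in capitals, which begins at 39 relative to the start in Dld and at −17 in Sucla2, there on the opposite strand.
Dld: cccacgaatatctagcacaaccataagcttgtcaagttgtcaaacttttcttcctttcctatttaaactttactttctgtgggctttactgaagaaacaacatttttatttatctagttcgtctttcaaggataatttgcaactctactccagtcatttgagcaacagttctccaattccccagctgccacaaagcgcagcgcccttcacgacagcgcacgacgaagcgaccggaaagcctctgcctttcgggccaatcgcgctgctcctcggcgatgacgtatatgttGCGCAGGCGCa
Sucla2: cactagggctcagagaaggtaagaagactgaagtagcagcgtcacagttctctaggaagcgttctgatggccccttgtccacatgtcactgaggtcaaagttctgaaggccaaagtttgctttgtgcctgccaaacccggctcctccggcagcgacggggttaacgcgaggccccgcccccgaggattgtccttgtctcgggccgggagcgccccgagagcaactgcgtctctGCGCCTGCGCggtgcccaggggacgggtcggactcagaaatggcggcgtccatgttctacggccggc

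The remaining matrix steps and the malate-aspartate shuttle showed the same dependence on the libraries that stood apart. Fh1, fumarase, had 366, 260, 268 and 224 CPM in RA+Dipy and 225, 225, 279 and 63.8 CPM in RA (log2 0.49, SE 0.41; 0.0528, SE 0.15, without the 2 libraries). Mdh2 had 712, 1013, 965 and 772 CPM in RA+Dipy and 973, 805, 1107 and 290 CPM in RA (log2 0.12, SE 0.40; −0.061 without the 2 libraries). Both genes were lowest in RA replicate 4, and the groups overlapped in the other 7 libraries. Of the 5 shuttle genes 4 had a higher fitted value in RA+Dipy with 8 libraries (median log2 fold change 0.18) and 1 with 6 (median −0.0355). Mdh1 had 1184, 687, 737 and 575 CPM in RA+Dipy and 714, 557, 846 and 157 CPM in RA, a log2 fold change of 0.48 (SE 0.47), and −0.0734 (SE 0.19) without the 2 libraries. Slc25a12, the calcium-sensitive aspartate-glutamate carrier, had 259, 378, 409 and 375 CPM in RA+Dipy and 294, 362, 359 and 123 CPM in RA (0.32, SE 0.36; 0.20, SE 0.15). The cytosolic aspartate transaminase Got1 had 356, 403, 417 and 353 CPM in RA+Dipy and 428, 344, 438 and 152 CPM in RA. The mitochondrial transaminase Got2 varied 1.52-fold between the extreme libraries, with 324, 281, 320 and 244 CPM in RA+Dipy and 313, 231, 325 and 351 CPM in RA, and stood at −0.062 on the log2 scale (SE 0.25). Unlike Got1, it was at its highest in RA replicate 4.

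All 3 genes of ketone body use had a higher fitted value in RA+Dipy, the median log2 change being 0.19 (0.0494 without the 2 libraries, 2 of 3 higher). Oxct1, which activates acetoacetate with succinyl-CoA, had 531, 368, 429 and 407 CPM in RA+Dipy and 363, 370, 439 and 360 CPM in RA (log2 0.18, SE 0.25). Acat1, the mitochondrial acetoacetyl-CoA thiolase, had 234, 222, 219 and 184 CPM in RA+Dipy and 195, 217, 245 and 73.5 CPM in RA (log2 0.23, SE 0.35). The groups overlapped for both, and without the 2 libraries the values were 0.0494 and −0.0619. Bdh1, which oxidises 3-hydroxybutyrate, had 30.9, 57.9, 43.1 and 28.8 CPM in RA+Dipy and 29.5, 35.9, 60.6 and 15 CPM in RA (log2 0.19, SE 0.41).

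Branched-chain amino acid genes had a median log2 fold change of 0.0286 with 8 libraries (3 of 4 higher in RA+Dipy) and −0.25 with 6 (1 of 4 higher). Bcat2, the mitochondrial aminotransferase that opens the pathway (chr7:45570153-45589711), had the smallest unadjusted p of the 35 (edgeR adjusted p 0.882). It had 81.6, 83, 64.1 and 78.3 CPM in RA+Dipy and 108, 76.7, 109 and 110 CPM in RA. All RA+Dipy libraries lay below 3 of the RA libraries, and RA replicate 2 lay within their range. The log2 fold change was −0.40 (SE 0.23) with 8 libraries and −0.37 (SE 0.17) without the 2, so the libraries that stood apart moved it little. Bckdhb, a dehydrogenase subunit, had 22.2, 23.2, 18.6 and 21.5 CPM in RA+Dipy and 27.4, 22.3, 24.8 and 8.28 CPM in RA (log2 0.0418, SE 0.34; −0.23, SE 0.14, without the 2). Dbt, the core of the branched-chain complex, had 52.6, 26.7, 23.6 and 25.7 CPM in RA+Dipy and 31.3, 32.7, 28.3 and 34.8 CPM in RA. RA+Dipy replicate 1 was the highest of the 8 and the other RA+Dipy libraries the lowest 3 (log2 0.0154, SE 0.29; −0.27, SE 0.13, without the 2 libraries).

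Bckdha, the partner subunit of Bckdhb, showed the widest range of the 35. It had 1.85, 29.2, 28.3 and 30.6 CPM in RA+Dipy and 25.1, 27.9, 28.2 and 3.38 CPM in RA, a ratio of 16.5 between the extreme libraries with 8 and 1.22 with 6. Its log2 fold change was 0.0874 (SE 0.76) with 8 libraries and 0.13 without the 2. Of its 1899 annotated exon bases 1171 are shared with the opposite-strand gene B3gnt8, and the reads were counted without strand. In all, 10 of the 35 share exon bases with a gene on the opposite strand, among them Pdha1 (603 bases), Bcat2 (622) and Mpc1 (480), so that reads from those bases cannot be told apart.

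**Figure D4:**
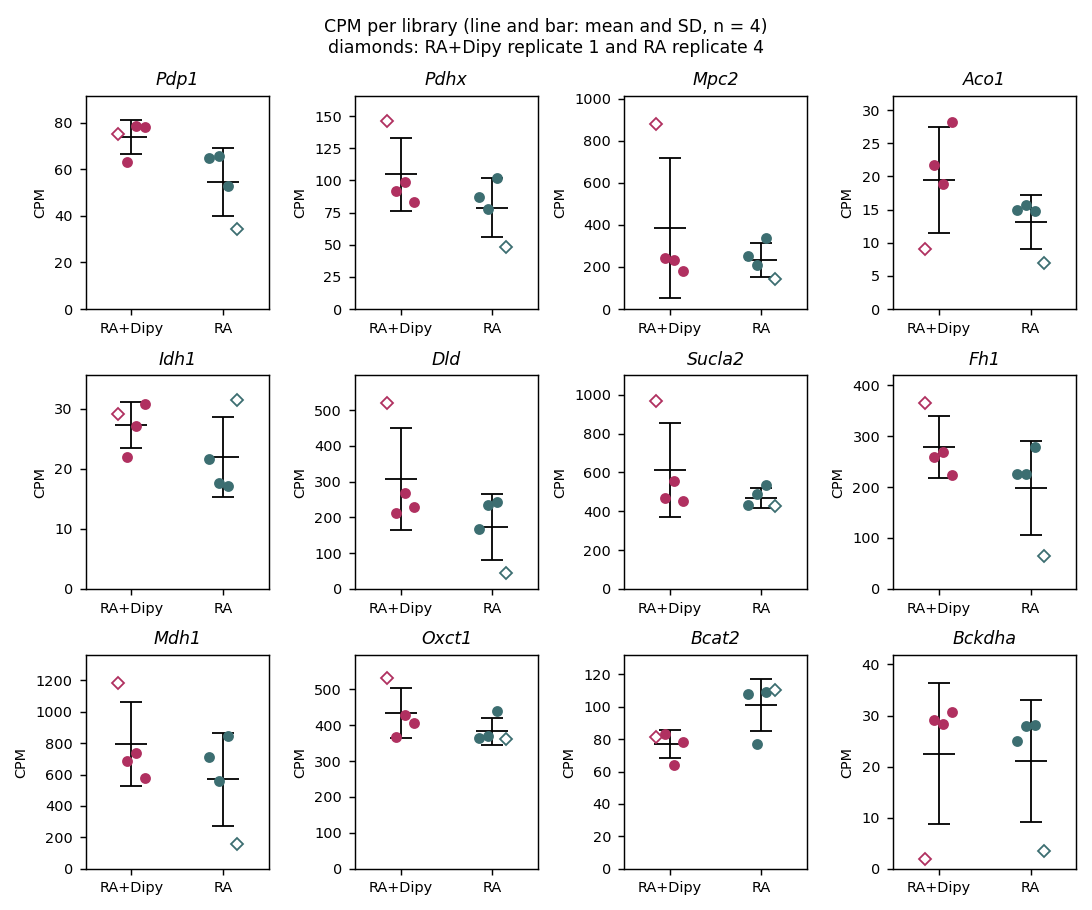
CPM in each library for 12 of the genes, RA+Dipy left and RA right, with the mean and SD (n = 4). Diamonds mark RA+Dipy replicate 1 and RA replicate 4; they set the extremes for Mpc2 (881 and 142), Dld (519 and 45.8) and Mdh1 (1184 and 157), and are both low for Bckdha (1.85 and 3.38).

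Ratios of 2 genes in the same library do not depend on how libraries are scaled, and 5 were compared by exact permutation over samples. The log2 ratio of mitochondrial to cytosolic malate dehydrogenase, Mdh2 over Mdh1, was −0.73, 0.56, 0.39 and 0.42 in RA+Dipy and 0.45, 0.53, 0.39 and 0.88 in RA. Of the 8 libraries 6 fell between 0.39 and 0.56, and the 2 others lay on opposite sides. The difference of RA+Dipy minus RA was −0.40 (two-sided exact permutation p = 0.343, Benjamini-Hochberg adjusted 0.667) and 0.0027 without the 2 libraries. Got2 over Got1 was −0.14, −0.52, −0.38 and −0.53 in RA+Dipy and −0.46, −0.58, −0.43 and 1.21 in RA, a difference of −0.33 (exact permutation p = 0.743, adjusted 0.743) that was 0.0074 without the 2. Sucla2 over Suclg2 was 3.75 ± 0.79 in RA+Dipy and 3.63 ± 0.50 in RA (SD), a difference of 0.12 (exact permutation p = 0.743, adjusted 0.743), and −0.0156 without the 2 libraries.

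Idh2 over Idh1 varied also among the libraries that resembled each other, from 2.17 to 4.24. Its log2 value was 1.84, 3.71, 2.92 and 2.17 in RA+Dipy and 3.66, 3.67, 4.24 and 1.68 in RA. RA replicates 1 to 3 were high, RA+Dipy replicate 2 lay within their range, and the other 4 libraries were lower. The difference was −0.66 (exact permutation p = 0.4, adjusted 0.667), and −0.93 without the 2 libraries (exact permutation p = 0.3, where 3 against 3 allows no p below 0.1). Leaving out RA replicate 4 alone gave −1.20, RA+Dipy replicate 2 −1.01, RA+Dipy replicate 1 −0.38 and RA replicate 3 −0.35. Pdk4, the kinase that switches pyruvate dehydrogenase off when fat is the fuel, was set over its opponent Pdp1: the log2 ratio was 2.05, 2.71, 2.59 and 1.85 in RA+Dipy and 0.46, 2.20, 2.38 and 1.05 in RA. The difference was 0.78 (exact permutation p = 0.229, adjusted 0.667), and 0.70 without the 2 libraries (exact permutation p = 0.5), and 0.42 without RA replicate 1, the lowest of the 8. With 4 against 4 the smallest p possible was 0.0286, and none of the 5 ratios had an adjusted permutation p under 0.05 (smallest 0.667).

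**Figure D5:**
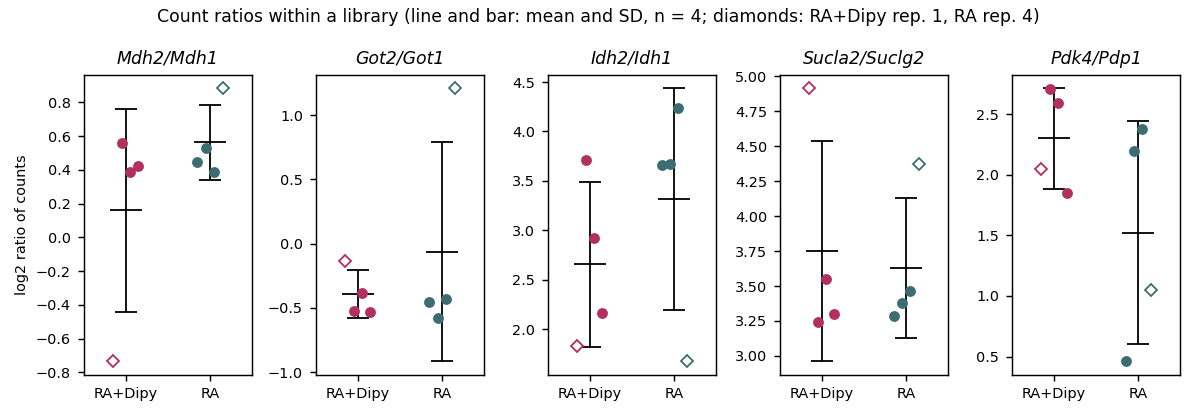
Log2 ratio of the counts of 2 genes in the same library, RA+Dipy left and RA right, with the mean and SD (n = 4); diamonds mark RA+Dipy replicate 1 and RA replicate 4. The other 6 libraries lie close together for Mdh2/Mdh1 (0.39 to 0.56) and apart for Idh2/Idh1 (2.17 to 4.24).

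Of 49 further genes of these pathways 47 passed the filter on low counts; 0 passed the adjusted threshold of edgeR in either direction, 30 had a higher fitted value in RA+Dipy and 17 a lower one. Their median log2 fold change was 0.12, and 0.031 without the 2 libraries (25 higher, 22 lower), where 4 of the 47 had an unadjusted p under 0.05 and none an adjusted one by edgeR, where 11.4% of all genes tested had an unadjusted p under 0.05. Pdk4 had the smallest unadjusted p of the 47 with 8 libraries (edgeR adjusted p 0.882). It had 312, 413, 474 and 281 CPM in RA+Dipy and 89.2, 303, 275 and 71.1 CPM in RA, with a log2 fold change of 1.00 (SE 0.48), and 0.82 without the 2 libraries. RA+Dipy replicates 1 to 3 lay above all RA libraries, and RA replicate 2 lay above RA+Dipy replicate 4. The alanine transaminase Gpt had a log2 fold change of −0.46 (SE 0.26). Among the remaining TCA genes, Pck2, the mitochondrial phosphoenolpyruvate carboxykinase, stood at 0.39 (SE 0.25) and Ogdhl, a relative of Ogdh, at −0.46 (SE 0.36). The 9 carriers and shuttle genes tested leaned 5 higher and 4 lower with 8 libraries (52.2% of all genes were higher). Without the 2 they were 9 of 9 higher (51.3% of all genes), with a median of 0.58 and 0 past the threshold. Gpd1l (0.0127), Gpd1 (0.0557) and Glud1 (0.0765) were then barely higher. Slc25a22, named after its values were seen, had 21, 20.9 and 20.5 CPM in RA+Dipy replicates 2 to 4. In RA replicates 1 to 3 it had 15.9, 10.5 and 12 CPM (log2 0.70, SE 0.17, edgeR adjusted p 0.418). RA+Dipy replicate 1 had 10 CPM of it and RA replicate 4 28.4 CPM, and with 8 libraries its log2 fold change was 0.12 (SE 0.37). Slc25a1 had 53.4 CPM in RA+Dipy replicate 4 and 8.44 to 19.3 CPM in the other libraries kept. Slc25a10 had 22.3 CPM in that library and 5.2 to 11 CPM in the others kept. Acly, the citrate cleaving enzyme of fat synthesis, stood at 0.75 (SE 0.47), and at 1.23 (SE 0.47) without the 2 libraries. It had 87 CPM in the fat-marker-rich RA+Dipy replicate 4 and 18.4 to 36.6 CPM in the other 7. The part of fat cells was again not tested. Slc25a13, the second aspartate-glutamate carrier, stood at 0.45 (SE 0.34), at most 1.07 CPM in any library. Of the other ketone and branched-chain genes, the monocarboxylate transporter Slc16a7 stood at 1.07 (SE 0.57) and the branched-chain kinase Bckdk at −0.46 (SE 0.33). Slc16a7 had 3.08 CPM in RA+Dipy replicate 4 and 0.355 to 1.25 CPM in the other 7, with RA replicate 2 above RA+Dipy replicates 1 to 3.

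The transhydrogenase Nnt, picked after its values were seen and in which the C57BL/6J strain is known to carry a deletion, had 0.192 to 0.462 CPM in RA+Dipy and 0.195 to 0.392 CPM in RA and was too low to test.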

How the data were processed

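The authors deposited, for each of the 8 libraries, raw read counts per protein-coding gene symbol. Trimming used fastp 0.20.0, alignment STAR 2.7.3a against GRCm38.p6, and counting HTSeq without regard to strand, on single 100 nt reads, per the design text and the submitters' processing notes. Which annotation release was counted is not stated there. The labels name TruSeq libraries, the design text a directional kit. Counts of 24 symbols on more than 1 line were summed. Genes were kept by filterByExpr (minimum count 10), which left 12755, and all 35 genes passed. Libraries were scaled by TMM and groups compared by the quasi-likelihood test of edgeR 4.0.16 (R 4.3.3; robust; group as the sole term; two-sided), with Benjamini-Hochberg adjustment across the 12755 genes (threshold 0.05). The script was tested on simulated counts in which no library stood apart, so that test did not cover libraries such as RA+Dipy replicate 1 and RA replicate 4. Given a limit of 3 counts, a zero would allow up to 0.0592 CPM (deepest library) or 0.183 CPM (shallowest) before TMM scaling. On the TMM scale the limit is raised most in RA replicate 4, whose factor was the smallest (0.708). These limits cover counting error only. The replicate number was not used to pair samples: the deviations of same-numbered libraries correlated at −0.19, 0.11, 0.15 and −0.27. Per the design text each library is a separate mouse, and no pair within a group agreed within sampling noise (smallest chi-square per degree of freedom 29.7).

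Alternatives were other scalings, filters and tests (DESeq2 1.42.0; limma 3.58.1 with voom, with and without library weights), the replicate block, and leaving out libraries. The 35 genes, the other lists and the alternatives were chosen with earlier results of these data known. Values in every library are given for the 2 genes of each step with the smallest p, the genes of the ratios and, chosen after their values were seen, Mpc1, Mpc2, Pdha1, Dlat, Pcx, Cs, Ogdh, Bdh1, Bckdha and Dbt. Gene positions and exon lengths come from GENCODE vM21 (GRCm38), promoter sequences from RefSeq (GRCm38.p6). Single values of some genes of the wider pathway lists are not reported here.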

Additional observations from a re-analysis of the deposited data

Results flagged for a closer look

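In 12 of the 70 groups of 4 values (35 genes in 2 groups), a single library lay far from the other 3 for the size of the group's range. For independent values chance flags about 1 group in 20. The 35 genes share the same libraries, so the 70 groups are not independent and the count cannot be compared with that rate. Of the 12, 5 fell on RA replicate 4 and 4 on RA+Dipy replicate 1. In RA+Dipy replicate 1, Mpc1 was low at 12.4 CPM (26.2 to 28.2 in the other 3 RA+Dipy libraries) and Bckdha at 1.85 CPM (28.3 to 30.6). Mpc2 was high there at 881 CPM (179 to 243), and so was Dbt at 52.6 CPM (23.6 to 26.7). In RA replicate 4, Dlat stood at 88.5 CPM (194 to 199 in the other 3 RA libraries), Aco1 at 7.01 CPM (14.8 to 15.7), Idh3a at 204 CPM (567 to 622), Suclg2 at 20.5 CPM (44.1 to 48.5) and Bckdha at 3.38 CPM (25.1 to 28.2). RA replicate 2 was low for Pdhb, at 268 CPM (371 to 390), and for Bcat2, at 76.7 CPM (108 to 110). RA replicate 3 was high for Oxct1, at 439 CPM (360 to 370).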

How the results depend on the processing

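Across 17 other settings 0 of the 35 genes passed the adjusted threshold, and 15 of the 35 kept their sign in each. Limma-voom with library weights called 133 genes (1.04%), none of them among the 35, of which 20 were higher in RA+Dipy and 6 had an unadjusted p under 0.05 (17.1%, against 28.5% of all genes); it gave RA+Dipy replicate 1 a weight of 0.174 and RA replicate 4 one of 0.110. The other settings called 0 genes. With the replicate block, 27 of the 35 were higher, with a median log2 fold change of 0.30, and Pcx stood at −0.16, Cs at −0.0459, Bckdha at −0.0376 and Dbt at −0.0647; the correlations of same-numbered libraries give no sign that the numbers pair samples.

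The log2 fold changes that took the other sign were mostly small. Pcx and Cs stood at −0.0143 and −0.0074 with DESeq2 size factors and in the DESeq2 Wald test, and at −0.18 and −0.0586 with limma-voom, where Bckdha stood at −0.13 and Dbt at −0.0609. Got2 stood at 0.0014 with upper-quartile factors and Dbt at −0.0040 without a low-count filter. With library weights Mpc2 stood at −0.31, Pdhb at −0.20, Ogdh at 0.0104, Dlst at −0.00095, Suclg1 at −0.21, Mdh2 at −0.10, Mdh1 at −0.0693, Got1 at −0.0457, Slc25a11 at −0.16, Acat1 at −0.0427, Bdh1 at −0.0722, Bckdhb at −0.31 and Dbt at −0.26. Without both RA+Dipy replicate 1 and RA replicate 4, Mpc2 stood at −0.27, Pdhb at −0.13, Ogdh at 0.0740, Suclg1 at −0.18, Mdh2 at −0.0610, Mdh1 at −0.0734, Got1 at −0.0355, Slc25a11 at −0.13, Acat1 at −0.0619, Bckdhb at −0.23 and Dbt at −0.27. The ratios Mdh2/Mdh1, Got2/Got1 and Sucla2/Suclg2 then stood at 0.0027, 0.0074 and −0.0156.

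With single libraries left out, the following genes changed sign, with these ranges: Mpc1 −0.0640 to 0.49, Mpc2 −0.11 to 0.94, Pdhb −0.18 to 0.14, Pcx −0.35 to 0.27, Cs −0.0910 to 0.21, Idh3g −0.0567 to 0.12, Dlst −0.0490 to 0.0917, Suclg2 −0.0756 to 0.25, Mdh2 −0.14 to 0.32, Got1 −0.0650 to 0.30, Got2 −0.17 to 0.0280, Slc25a11 −0.0557 to 0.30, Acat1 −0.0129 to 0.40, Bdh1 −0.0549 to 0.57, Bckdha −0.26 to 0.47, Bckdhb −0.20 to 0.21 and Dbt −0.33 to 0.14. So did the differences of the ratios Got2/Got1 (−0.50 to 0.0936) and Sucla2/Suclg2 (−0.26 to 0.37). Without RA replicate 4, 30 of the 35 values changed sign or moved by over 1.5 times, 26 of them to a value closer to 0 or of the other sign; without RA+Dipy replicate 1, 23 did so, 13 of them to a value closer to 0 or of the other sign. The ranges of Suclg1 (0.0500 to 0.44), Mdh1 (0.19 to 0.73) and the ratio Mdh2/Mdh1 (−0.54 to −0.11) kept their sign. So did those of Pdha1 (0.29 to 0.98), Dlat (0.16 to 0.44), Pdhx (0.21 to 0.54), Pdp1 (0.29 to 0.54), Aco1 (0.34 to 0.80), Idh1 (0.21 to 0.55), Idh2 (−0.63 to −0.13), Idh3a (0.0156 to 0.38), Idh3b (0.15 to 0.68), Ogdh (−0.33 to −0.0138), Dld (0.45 to 1.02), Sucla2 (0.0657 to 0.50), Fh1 (0.22 to 0.69), Slc25a12 (0.081 to 0.46), Oxct1 (0.0679 to 0.25) and Bcat2 (−0.51 to −0.32), and of the ratios Idh2/Idh1 (−1.20 to −0.35) and Pdk4/Pdp1 (0.42 to 1.06). The causes were not tested. With 4 mice in each group and 2 libraries unlike the rest, the median SE of 0.34 limits what these data can show for a single gene.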

Other observations

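The 35 genes also differed between libraries with the length and base composition of their transcripts, taken as the longest coding transcript in GENCODE vM21. The 35 genes share libraries and depth and are not independent. Across them, Spearman's rho was taken between a gene's deviation from its 8-library median and transcript length. It was −0.21, 0.051, 0.32 and 0.52 in RA+Dipy replicates 1 to 4 and −0.34, 0.34, −0.57 and 0.19 in RA replicates 1 to 4. Both signs thus occurred in both groups. Regardless of sign, rho was largest in RA+Dipy replicate 4 and RA replicate 3. Over 12615 genes it was 0.43 and −0.46 in the same libraries. Neither is a library that stood apart. With GC content, rho over the 35 was −0.45, 0.42, −0.32 and −0.20 in RA+Dipy replicates 1 to 4 and 0.43, −0.16, 0.39 and 0.11 in RA replicates 1 to 4. Regardless of sign it was largest in RA+Dipy replicate 1 and smallest in RA replicate 4, the libraries that stood apart. Over the 12615 genes it was −0.32, 0.068, −0.21 and −0.23 in RA+Dipy and 0.47, −0.37, 0.20 and 0.37 in RA. The 12 members of lowest GC (39.2% to 46.9%) had median deviations of 0.22 log2 units in RA+Dipy replicate 1 and −1.32 in RA replicate 4. The 12 of highest GC (52.1% to 57.9%) had −0.21 and −0.91. These values are descriptive.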
